A study of Rattus norvegicus with 60 samples.

Results

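A stretch of rat chromosome 1, from 212.0 to 214.2 Mb of the Rn6 build, is described here through the 275 methylated regions it holds, of 456185 found across the genome. Peaks of all 60 samples were merged wherever they overlapped by at least 1 bp, and a merged region became a member when 3 or more samples had a peak in it. The segment was selected on values: it holds 3 intergenic regions, here DMR 1, DMR 2 and DMR 3, that the study lists as more methylated after prenatal alcohol exposure in both tissues on P22. The contrast of PAE with C and PF on P22 is therefore what chose the segment, and it is given below as a description without a test. A test of group by tissue on P22 draws on the same values, and nothing is read from it.

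All animals were female offspring of outbred Sprague-Dawley rats, with 4 per group and age, and their DNA methylation was profiled by meDIP-seq. Alcohol reached the PAE offspring through their dams, which drank a liquid ethanol diet without restriction during gestation. PF controls for reduced eating: each PF dam was yoked to a PAE dam and given only as much of an ethanol-free liquid diet, its calories made up with maltose-dextrin. C dams could eat pellets of the control diet at will. The hypothalamus was taken on P1 (titles say P0, the age label 1), P8, P15 and P22, and white blood cells (WBC), which are mononuclear cells of the blood, came from the same P22 animals. Animals 1 to 4 of each group were P1, 5 to 8 P8, 9 to 12 P15 and 13 to 16 P22. Both tissues are mixtures of cell types, so a change in the share of cells that are methylated at a region and a change in their composition cannot be told apart.

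DNA methylation is the addition of a methyl group to cytosine, in mammals mostly where a guanine follows, and in intergenic DNA it is part of how cells keep sequence silent. Cell types differ in where they are methylated, and patterns in the brain continue to change after birth. In meDIP-seq an antibody against methylated cytosine pulls down DNA fragments, so a peak is a region where methylated fragments pile up. The readout is relative and covers a region, not single cytosines.

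The height of a peak is the number of fragments over its summit, scaled here to a common level across samples. A region without a peak in a sample was set to 6.35 scaled fragments, and differences are log2. That floor lies below the lowest height called at some members, which before scaling was 12 fragments in DMR 1 and 17 in chr1:212704626-212705296. These heights are not the limit of the peak caller: in DMR 2 it called a peak of 6 fragments in PAE 1. How many fragments a sample without a peak held is not known, and the differences given depend on the floor.

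Fragments per sample ran from 11910384 to 22156238 (median 16699463), and peaks over the genome from 138637 to 227667. Members with a peak numbered 82 to 147 per sample (median 119). In the P22 hypothalamus the mean was 93 ± 5.35 (SD, n = 4) in C, 85 ± 2.94 in PF and 96.5 ± 12.4 in PAE. In WBC it was 130 ± 5.72, 130 ± 15.8 and 136 ± 2.65, with PF 15 WBC included; without that sample, which is described below, the PF mean was 135 ± 16.4 (n = 3). WBC samples thus had peaks in more members than the hypothalamus at the same age, and PAE samples overlapped both other groups. Peaks over the genome also ran higher in WBC, at 167809 to 215888 against 146319 to 175849 in the P22 hypothalamus. The higher WBC count is thus not particular to the segment.

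The members were 367 to 2612 bp wide (median 710 bp), against a median of 740 bp over all regions, and together covered 236284 bp. The number of samples with a peak ranged from 3 to 60 (median 20; over all regions 17). At the edge of the rule, 16 members had a peak in 3 samples, while 42 merged regions had one in 2 samples and 82 in 1 sample and were left out of the 399 before the filter. At the other end, 100 members had a peak in 30 or more samples and 20 in all 60. The first member starts at 212002198 and the last ends at 214199141. The nearest regions outside are chr1:211998366-211998891, with a peak in 8 samples, and chr1:214203958-214205141, with a peak in 55. Neighbouring members lie 25 to 188752 bp apart (median 3730 bp), and the widest gap is chr1:213935261-214124012.

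The sample PF 15 WBC was left out of the P22 comparisons, because the study removed it for clustering with the hypothalamus. Its values in the segment bear on that label. Of 3 members with a peak in every WBC sample used and in no P22 hypothalamus sample, it had a peak in 0, and 2 of the 3 had a peak in some of the 48 hypothalamus samples. It did have peaks in chr1:212023896-212024390 (27 fragments) and chr1:212303509-212304367 (22.5), where other WBC samples had none, apart from PAE 13 WBC with 10.5 in the latter. Of 59 members with a peak in some other WBC sample and in no P22 hypothalamus sample, it had a peak in 9, among them chr1:214124013-214124602 (15.3) and chr1:213031644-213032247 (10.8). Of 32 with a peak in some P22 hypothalamus sample and no other WBC sample, it had one in 7. Counted in the same way against the rest of WBC, each other WBC sample had a peak in 16 to 25 of the former kind and in 0 to 4 of the latter. Its 118 members with a peak lie within the range of WBC (116 to 147) and above every P22 hypothalamus sample (82 to 113). P22 differences, limma fits and descriptions of P22 gains below leave it out; counts over all samples include it where they say so.

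DMR 1 is the member chr1:213019309-213019881, with a peak in 16 samples. In the P22 hypothalamus PAE 14 had 16.4 fragments and PAE 15 had 24.4, and PAE 13, PAE 16 and all C and PF animals had no peak. In WBC PAE 15 had 10.9 and PAE 16 had 11.3, with no peak in any other WBC sample. The P22 signal is therefore confined, within these samples, to 3 of the 4 PAE animals, and PAE 15 alone has it in both tissues. The mean difference was 0.83 against C and 0.83 against PF in the hypothalamus, and 0.41 and 0.41 in WBC.

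At younger ages DMR 1 was not restricted to PAE. On P1, C 1 had 17.6 fragments, PF 1, PF 3 and PF 4 had 16, 14.8 and 15.6, and PAE 4 had 15.9, with no peak in the other 7. On P8 there were peaks in PF 8 (20.5) and PAE 8 (15.8). On P15 all PAE animals had a peak (17.8, 21.4, 16.9 and 12.9), PF 9 had 16.7, and no C animal had one. The groups mix on P1 and P8, whereas on P15 the PAE animals are high together and overlap with PF 9. The P15 differences of PAE from C and from PF were 1.42 and 1.07, against 0.33 and −0.09 on P8 and −0.04 and −0.63 on P1.

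DMR 2 is chr1:213182125-213182747, with a peak in 24 samples. In the P22 hypothalamus PAE 14 alone had a peak, of 14.3 fragments. In WBC all PAE animals had one (6.65, 12.3, 17.3 and 10.5), as did C 13 (8.61) and C 15 (11.5), and PF 15 WBC, which was left out, had 13.5. The WBC values of PAE overlap those of C, and the hypothalamus signal rests on a single animal. Mean differences from C and PF were 0.29 and 0.29 in the hypothalamus and 0.48 and 0.80 in WBC.

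Before P22, DMR 2 had peaks in all groups. On P1 heights were 15.2, 8.74 and 10.9 in C 1, C 3 and C 4, 18.9 and 18.1 in PF 1 and PF 3, and 6.35, 11.9 and 22.3 in PAE 1, PAE 3 and PAE 4. On P8, C 7 had 13.9, PF 7 had 10.3, PAE 5 had 14 and PAE 8 had 16.7. On P15, C 9 and C 10 had 14.2 and 14.5, PF 9 and PF 11 had 13.6 and 12.3, and no PAE animal had a peak. The groups overlap on P1 and P8, and on P15 the peaks are in C and PF animals. The mean of PAE minus that of C and PF was −0.59 and −0.51 on P15, 0.35 and 0.46 at P8 and 0.06 and −0.09 at P1.

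DMR 3, chr1:213270090-213271283, had a peak in 26 samples. In the P22 hypothalamus PAE 14, PAE 15 and PAE 16 had 14.3, 11.6 and 10.2 fragments, and no C or PF animal had a peak. In WBC the same animals had 14.2, 16.4 and 14, C 15 had 11.5, and PF 15 WBC, left out, had 12.6. The same 3 PAE animals are high in both tissues, PAE 13 has no peak in either, and in WBC each of the 3 lies above C 15. Mean differences from C and PF were 0.68 and 0.68 in the hypothalamus and 0.70 and 0.92 in WBC.

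On P1 DMR 3 had heights of 16 and 6.8 in C 1 and C 3, 15.1, 16.4 and 14.6 in PF 1, PF 3 and PF 4, and 12.8 and 18.1 in PAE 2 and PAE 4. On P8, C 7 had 9.92, PF 7 and PF 8 had 9.48 and 10.7, and PAE 5 and PAE 8 had 14 and 13.3. On P15 all PAE animals had a peak (16.8, 16.3, 13 and 25), beside C 10 (14.5) and PF 9 (10.5). The P1 groups overlap throughout, the 2 P8 PAE animals with a peak are above the other animals of that age, and on P15 PAE overlaps with C 10. PAE exceeded C and PF by 1.15 and 1.26 on P15 and by 0.39 and 0.22 on P8; the P1 differences were 0.27 and −0.33.

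Over all 20 samples per group, with PF 15 WBC and with both tissues of the P22 animals, DMR 1 had a peak in 1 C, 5 PF and 10 PAE samples, DMR 2 in 8, 6 and 10, and DMR 3 in 5, 7 and 14. Without PF 15 WBC the PF counts were 5, 5 and 6 of 19. These counts include the P22 values that chose the segment. Among the 12 younger samples per group, the counts were 1, 5 and 6 for DMR 1, 6, 5 and 5 for DMR 2, and 4, 6 and 8 for DMR 3. Among younger animals of the Dev-4 cohort, 6 per group, DMR 1 had a peak in 4 PAE, 0 C and 1 PF animals, DMR 2 in 1, 2 and 2, and DMR 3 in 5, 1 and 1. In the other cohorts, also 6 per group, DMR 1 had a peak in 2 PAE, 1 C and 4 PF animals, DMR 2 in 4, 4 and 3, and DMR 3 in 3, 3 and 5. All P15 animals are Dev-4 and all P1 animals are of other cohorts, so the pooled cohort counts also differ in age. On P8, where Dev-4 and Dev-5 each gave 6 animals, DMR 1 had a peak in 0 Dev-4 and 2 Dev-5 animals, DMR 2 in 1 and 3, and DMR 3 in 1 and 4. All 4 younger Dev-4 PAE animals with a peak in DMR 1 were P15 animals. Across the 3 sequencing pools of 20 samples, PF 15 WBC included, DMR 1 had peaks in 6, 5 and 5 samples, DMR 2 in 8, 10 and 6, and DMR 3 in 8, 9 and 9.

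Some animals of different ages carry the same breeding and animal number, read here as the same dam. PAE 5, PAE 9 and PAE 15 share a dam: PAE 5 (P8) had peaks in DMR 2 and DMR 3, PAE 9 (P15) in DMR 1 and DMR 3, and PAE 15 (P22) in all 3 in WBC and in DMR 1 and DMR 3 in the hypothalamus. PAE 11 (P15) and PAE 16 (P22) also share a dam, and both had peaks in DMR 1 and DMR 3, PAE 16 in DMR 1 through WBC alone. PF 9 had peaks in all 3 DMRs on P15, while PF 15, of the same number on P22, had none in the hypothalamus and, in the WBC sample left out, peaks in DMR 2 and DMR 3. Of the other litters, C 2 and C 14, PF 5 and PF 10, and C 11 and C 16 had no peak in any DMR. Of C 5, C 9 and C 15, C 5 had none, C 9 had DMR 2 and C 15 had DMR 2 and DMR 3 in WBC alone. Littermates were not compared with other animals.

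Whether gains run in blocks can be read from members in genome order. DMR 1 and DMR 2 lie 162243 bp apart with 9 members between them, and DMR 2 and DMR 3 87342 bp apart with 4 between. Of the 14 members between DMR 1 and DMR 3, DMR 2 included, 0 had a mean P22 gain of 0.5 or more against both C and PF in a tissue. DMR 2 was close to that limit in WBC, at 0.48 against C and 0.80 against PF. A gain of that size, a threshold chosen after seeing the data, was found in 9 members in the hypothalamus (3.42% of all regions), each in a run of length 1, as were 96.8% of such runs over the genome. In WBC it was found in 8 members (2.33%), again each in a run of 1 (97.6% over the genome). The 2 members with such a gain in both tissues (0.14% of all regions) were DMR 3 and chr1:213863275-213863728, which lie far apart. Losses of 0.5 were found in 2 members in the hypothalamus (1.67%), in 5 in WBC (1.54%) and in 0 in both (0.0577%). At this threshold the gains were single members and not blocks. A member without a peak in any of the compared samples differs by 0 and ends a run. In the P22 hypothalamus 83 members were at 0 against C and 90 against PF, and in WBC 59 and 61.

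With the threshold of 1, fixed for the description, 0 members gained in the hypothalamus (0.308% of all regions) and 1 in WBC (0.163%), with 0 in both (0.00307%). The hypothalamus and WBC counts depend on the setting. Hypothalamus gains numbered 3 with fold enrichment (WBC 2), 8 with the floor lowered (WBC 5) and 3 without animals 13 (WBC 2). They numbered 3 without animals 15 (WBC 1) and 1 without animals 16 (WBC 1). Losses of 1 numbered 0 in the hypothalamus (0.107%), 0 in WBC (0.113%) and 0 in both (0.000877%). When any positive difference from both C and PF was counted, 75 members (27.3%; 26.2% of all regions) of the hypothalamus fell in 54 runs, with a mean length of 1.39 against 1.34 over the genome and a longest run of 3. In WBC 79 members (28.7%; 27.4%) fell in 63 runs, with a mean of 1.25 against 1.36 and a longest run of 3. Negative differences gave 47 members (17.1%; 16.9%) in 41 runs (mean 1.15 against 1.19) in the hypothalamus and 68 (24.7%; 18.5%) in 58 runs (mean 1.17 against 1.21) in WBC. Runs in the segment were thus about as short as over the genome.

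The signs of neighbouring members can be set beside those of neighbours over the genome, as a description. Of neighbouring pairs that both differed from 0, 65 of 132 (49.2%) had the same sign for PAE vs. C in the P22 hypothalamus, against 48.8% over all regions, and 58 of 122 (47.5%) for PAE vs. PF, against 48.8%. In WBC the shares were 74 of 172 (43%) and 74 of 166 (44.6%), against 48.7% and 48.6%. At younger ages the shares for PAE vs. C and PAE vs. PF were 45.9% and 48.1% on P1 (over all regions 48.8% and 49.2%), 41.6% and 52.6% on P8 (49.1% and 49%) and 59.6% and 50.6% on P15 (49.2% and 48.9%). The shares lie on both sides of those of the genome. On P15, 142 members (51.6%) lay below C and 78 (28.4%) above, against 42.4% and 34.1% of all regions, with a median of −0.02. Against PF, 41.1% lay below and 38.2% above on P15 (38.7% and 36.6% of all regions). On P1 the larger share lay above, with 45.8% above C and 35.3% below (36.2% and 39.1% of all regions). Against PF the P1 shares were 46.2% above and 36.4% below (35.9% and 40.5%). PAE 9, PAE 10 and PAE 11 had a peak in 97, 92 and 93 members, fewer than any P15 C animal, and PAE 12 had one in 134. PF 11 and PF 12 had one in 97 and 95. Over the genome PAE 9, PAE 10 and PAE 11 had 169667, 145009 and 144173 peaks, PAE 12 had 214435, and the P15 C animals had 178703 or more. The part of these counts in the P15 differences was not tested.

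The DMRs share samples across the distance between them. Over all 60 samples, PF 15 WBC included, all 16 with a peak in DMR 1 also had one in DMR 3, which had 10 others, and 34 samples had neither. Among the 24 younger C and PF samples, which the choice of the segment did not use, 6 had both, 0 had DMR 1 alone, 4 had DMR 3 alone and 14 had neither. Of the 456184 other regions, 36230, with 26 members among them, had a peak in every DMR 1 sample. Of these, 1 region, DMR 3, had a peak in at most 10 other samples, a limit taken from DMR 3 itself. Over the 36 younger hypothalamus samples the count was also 1, with a limit of 6, likewise that of DMR 3. With these limits DMR 3 passes by construction. The 60 samples also include the P22 values that chose the segment. DMR 3 has a peak in 10 further samples and matches DMR 1 in presence or absence of a peak in 83.3% of the 60 samples. Some regions on other chromosomes match DMR 1 in more samples, such as chrX:58233527-58234120 (86.7%, 8 shared peaks) and chr6:140876943-140877841 (85%, 9 shared peaks). Compared with DMR 3 in the same way, the closest region was DMR 1 (83.3%), before chr12:14873620-14874116 and chr18:4730585-4732656 (76.7% each). DMR 1 and DMR 2 shared 9 samples, with 7 and 15 in a single one of them, and DMR 2 and DMR 3 shared 17, with 7 and 9. Of the members between DMR 1 and DMR 3, 1 had a peak in all DMR 1 samples, chr1:213134697-213136656, which had a peak in all 60.

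Just past DMR 3, the next member, chr1:213282914-213283367, had a peak in 5 samples, all of them among the samples of DMR 3: C 1 (6.38), C 10 (7.23), PAE 4 (13.8), PAE 5 (9.32) and PAE 9 (10.9). After it comes chr1:213284558-213285843, which starts 13274 bp after the end of DMR 3 and had a peak in 36 samples, 23 of them shared with DMR 3. In this member, all P15 PAE animals had a peak (18.8, 13.8, 16.9 and 18.1), with C 10 at 15.5 and PF 9 and PF 10 at 15.7 and 6.85. P15 PAE thus overlaps with C and PF but is present in every animal. Differences of PAE from C and PF were 1.08 and 1.05 on P15, −0.39 and −0.62 on P1 and 0.30 and 0.21 on P8.

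On P22 the same member had peaks in PF 13 (7.82), PAE 14 (10.2) and PAE 16 (12.2) in the hypothalamus. In WBC C 13, C 14 and C 16 had 14.4, 16.6 and 7.31, PF 13 had 9.02, and the PAE animals had 12.4, 9.46, 13.7 and 10.5. C and PAE overlap in WBC. The differences from C and PF were 0.41 and 0.33 in the hypothalamus and 0.15 and 0.67 in WBC.

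The peaks of DMR 1 also coincide in position. Its 16 summits fall within 78 bp, from 213019535 to 213019613, with fold enrichment of 4.78 to 7.94 (median 6.46) over a local background of 1.44 to 2.34 fragments. The median background was 1.85 in the 10 PAE samples with a peak and 1.78 in the 6 others. In DMR 2, 23 of 24 summits lay within 100 bp of their median, with fold enrichment of 2.79 to 8.93 (median 5.06). DMR 3 was broader, with summits over 823 bp, 14 of 26 within 100 bp of the median, and fold enrichment of 3.14 to 8.97 (median 5.46). DMR 1 and DMR 2 thus had a narrow, shared summit position, and DMR 3 more than a single one. A shared position is not particular to them: in chr1:212704626-212705296 all 47 summits lay within 100 bp of their median.

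Other members set PAE apart on P22 in fewer animals or in a single tissue. The members with every PAE sample above every C and PF sample numbered 0 over both tissues together (0% of all regions), 0 in the hypothalamus (0.0903%) and 1 in WBC (0.176%). Those with every PAE sample below numbered 0 over both tissues (0%), 0 in the hypothalamus (0.0381%) and 1 in WBC (0.096%). A peak in at least 6 of the 8 PAE samples and at most 2 of the 15 others was found in 1 member, DMR 3 (0.0252%). The opposite pattern, a peak in at most 1 of the 8 PAE samples and at least 10 of the 15 others, was found in 0 (0.0256%). As these counts come from the contrast that chose the segment, nothing is read from them.

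The WBC member above is chr1:212704626-212705296, which was chosen after its values were seen. PAE had 34.2, 32.2, 36.5 and 26.2 fragments in WBC, C 15 and C 16 had 17.2 and 21.9, and PF 14 had 25.6, with no peak in C 13, C 14, PF 13 and PF 16. In the hypothalamus of the same animals C 15 and C 16 had 20.7 and 24, PF 15 and PF 16 had 31.8 and 31.4, and PAE 13, PAE 14 and PAE 16 had 29, 29.6 and 25.5. PAE lies above the others in WBC by scaled height and overlaps with PF in the hypothalamus. Before scaling, PAE 16 WBC and PF 14 WBC both had 30 fragments. By fold enrichment PF 14 WBC (6.46) lies above PAE 16 WBC (5.97), so the WBC separation depends on the readout. Differences from C and PF were 1.53 and 1.66 in WBC and 0.70 and 0.45 in the hypothalamus. Of the 24 P1 and P8 samples, PAE 3 alone lacked a peak in it. On P15, C 10 and C 12 had 19.6 and 33.9, PF 9, PF 10 and PF 11 had 25.1, 25.4 and 19.1, and PAE had 20.8, 31.4, 25.9 and 30.2. Every P15 PAE animal had a peak, in the range of C and PF.

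Also chosen after its values were seen, chr1:213863275-213863728 gained 0.78 against C and 0.78 against PF in the P22 hypothalamus and 0.59 and 0.57 in WBC. In the hypothalamus PAE 14 and PAE 16 had 17.4 and 20.4, and no C or PF animal had a peak. In WBC PAE 13, PAE 15 and PAE 16 had 15.2, 15.5 and 18.3, C 13 had 21 and PF 14 had 16.2. The highest WBC sample is a C animal, and PAE 16 alone has peaks in both tissues. On P8 all PAE animals had a peak (20.2, 16.4, 19.2 and 18.3), C 6, C 7 and C 8 had 10.7, 17.9 and 14, and no PF animal had one. PAE and C overlap on P8. On P1 the member had a peak in 1 C, 2 PF and 1 PAE animals, and on P15 in 1 of 4 in each group.

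Lower in PAE WBC, and likewise chosen after its values were seen, was chr1:213601816-213602930. PAE had 12.4, 14.2, 17.3 and 17.5, C had 18.2, 25.3, 20.1 and 26.5, and PF 13, PF 14 and PF 16 had 25.3, 22.2 and 22.2. In the hypothalamus C had 21.1, 14.5, 9.2 and 14.9, PF 14 and PF 15 had 13.3 and 15.3, and PAE had 15, 11.2, 11.6 and 13.2. In WBC the highest PAE value (17.5) lies just below the lowest C value (18.2), and C and PF overlap. In the hypothalamus all 3 groups overlap.

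The 2 tissues of each of 11 P22 animals could be compared. DMR 3 had a peak in both tissues in 3 PAE animals and in neither in the remaining 1. In C it had a peak in WBC alone in 1 of 4 animals, and in PF in 0 of 3. DMR 2 was seen in both tissues in 1 PAE animal and in WBC alone in 3 PAE and 2 C animals. DMR 1 gave 1 PAE animal each with both, hypothalamus alone, WBC alone and neither. Over the 112 members that varied in both tissues, presence of a peak agreed between the tissues of an animal in 55.9% of cases, against 54.4% between tissues of different animals of a group. Over the genome the shares were 56.5% and 55.4%. For DMR 3 they were 90.9% and 70%, for DMR 1 81.8% and 80%, and for DMR 2 54.5% and 50%. The DMRs were listed for a shared direction in both tissues on P22. Their shares draw on the values that chose the segment, and nothing is read from them.

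Younger samples were not used to choose the segment and so allow a test. Some of these animals were read as littermates of P22 animals or of each other, and dam was not a term. A limma fit over 36 hypothalamus samples of P1, P8 and P15, with extraction round and breeding as terms, tested 244 of the 275 members; the other 31 had too few peaks. With Benjamini-Hochberg adjustment over all 387891 regions, limma called 0 members in PAE vs. C (0.000258% of all regions), with 13 at an unadjusted p under 0.05 (5.33%; 4.9% of all regions), 9 higher and 4 lower. In PAE vs. PF limma called 0 (0%), with 19 at an unadjusted p under 0.05 (7.79%; 4.69% of all regions), 11 higher and 8 lower. In PF vs. C limma called 0 (0%), with 11 at an unadjusted p under 0.05 (4.51%; 4.99% of all regions), 3 higher and 8 lower. Member differences ran from −0.95 to 0.62 (median −0.01) in PAE vs. C, from −0.72 to 0.92 (median 0.01) in PAE vs. PF and from −1.76 to 0.46 (median −0.01) in PF vs. C. No group difference at younger ages passed the threshold in the segment.

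In PAE vs. C, the limma difference of DMR 1 over the younger ages was 0.57 ± 0.25 (SE, n = 12 per group; Benjamini-Hochberg adjusted p = 0.969, unadjusted p = 0.0282), with a peak in 6 of 12 PAE and 1 of 12 C samples. For DMR 3 it was 0.60 ± 0.25 (n = 12 per group; limma adjusted p = 0.969, unadjusted p = 0.0213; 8 of 12 and 4 of 12), and for DMR 2 −0.06 ± 0.26 (adjusted p = 0.998; 5 of 12 and 6 of 12). Against PF the differences were 0.11 ± 0.25 (adjusted p = 0.991) for DMR 1, −0.05 ± 0.26 (adjusted p = 1) for DMR 2 and 0.39 ± 0.25 (adjusted p = 0.988) for DMR 3. The differences of DMR 1 and DMR 3 were smaller without P15. Without the P15 samples, an alternative chosen after seeing the data, they were 0.15 and 0.33 against C and −0.36 and −0.05 against PF. Within Dev-4 alone, also chosen after seeing the data, they were 0.95 and 0.95 against C and 0.71 and 1.03 against PF.

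A limma F test of group by age over the same samples called 0 members (0.00516% of all regions), with 17 at an unadjusted p under 0.05 (6.97%; 4.92% of all regions). DMR 1 had F = 2.9 and DMR 3 F = 1.97, each with an adjusted p of 0.993, so a dependence of their group difference on age was not shown. Without animals 9 of each group 1 member was called, chr1:212649999-212651224 (F = 11, adjusted p = 0.0396; with them F = 4.92, adjusted p = 0.714). This member, chosen after its values were seen, had a peak in 3 P15 PF animals and in no P15 C or PAE animal.

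The member with the lowest p in each younger comparison was chosen after its values were seen. In PAE vs. C it was chr1:212180625-212181727, with a difference of −0.47 ± 0.16 (SE; limma adjusted p = 0.969). C 1, C 2 and C 4 had 7.98, 11.2 and 10.9 on P1, C 5, C 6 and C 7 had 11.8, 7.8 and 8.93 on P8, and on P15 all C had a peak (7.64, 9.29, 12.8 and 14.5). PAE had peaks in PAE 3 (9.37), PAE 6 (6.58) and PAE 8 (8.33). C animals had peaks more often than PAE animals, and some of the C peaks lie above all PAE peaks.

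In PAE vs. PF it was chr1:212345960-212346630, at 0.76 ± 0.22 (SE; limma adjusted p = 0.988). Peaks were present in PAE 1 (16.1), PAE 3 (14.5), PAE 5 (16.3), PAE 6 (10.7), PAE 8 (18.3), PAE 10 (20.1), PAE 11 (18.2) and PAE 12 (13.8), and among younger PF in PF 6 (15.9). C 6 and C 10 had 20.5 and 17.6. The PAE animals had peaks at each age, and the highest value is that of a C animal.

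In PF vs. C it was chr1:213727102-213727682, at −1.76 ± 0.48 (SE; limma adjusted p = 0.949), a member whose peaks were high or absent. On P1 the C animals had 63.8, 60.6, none and 38.1, at P8 28.3, 32.2, 32.7 and 56.8, and at P15 66.6, 56.8, 41.2 and 48.5. PF had peaks in PF 1 (23.6), PF 7 (60.8), PF 8 (35.1) and PF 11 (39.3), and PAE in PAE 3 (33.2), PAE 4 (55.2), PAE 5 (66), PAE 6 (40.3), PAE 8 (43.3), PAE 11 (48) and PAE 12 (44). All but 1 of the younger C animals had a peak, against 4 of 12 PF. On P22 the hypothalamus had it in C 13 (35.1) and C 16 (43.5), in PF at 15.6, 75.3, 15.3 and 40.4, and in PAE 13, PAE 14 and PAE 16 (40.8, 66.5 and 24.5). The order of PF and C seen at younger ages is not present there.

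At single younger ages, members with every PAE animal above every C and PF animal numbered 1 on P1 (0.0945% of all regions), 0 on P8 (0.0934%) and 0 on P15 (0.0758%), and those below 0 on P1 (0.0666%), 0 on P8 (0.0509%) and 1 on P15 (0.0533%). The P1 member, chr1:212352900-212353512, had 20.2, 17.7, 19.6 and 18.1 in PAE, 16.8 and 17.4 in C 2 and C 4, and no peak in PF. The P15 member, chr1:213917415-213918481, had 13.9, 13.8, 13 and 11.2 in PAE, 24, 17.6, 22.6 and 20.4 in C and 23, 20.6, 16.8 and 25.4 in PF. Both were chosen after their values were seen. On P8 the P1 member had a peak in 1 C, 3 PF and 3 PAE animals, on P15 in 1, 1 and 2, and in the P22 hypothalamus in C 14 alone (19.6). In P22 WBC the differences of PAE from C and PF were −0.83 and −1.01, opposite in sign to P1. The P15 member has a peak in all 60 samples, and on P22 its PAE hypothalamus values (19.3, 12.3, 22.1 and 19.4) lie among those of C (11.7, 21.7, 20.7 and 25.2) and PF (15.6, 17.7, 16.5 and 14.6).

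Many members differed between the tissues. Between WBC and hypothalamus on P22, limma tested 215 of the 275 members and called 81 at a Benjamini-Hochberg adjusted p under 0.05, of which 57 were higher in WBC (26.5% of members tested; 23.3% of all regions) and 24 higher in the hypothalamus (11.2%; 13.5%). Differences were 0.24 to 1.88 in the former and −1.93 to −0.40 in the latter. The median was 0.24 over members and 0.13 over all regions tested. With heights scaled by fragments in place of shared peaks, 114 were higher in WBC and 17 lower, 87% against 70.4% higher in WBC, and the median of all regions rose from 0.13 to 0.36. Single members are therefore read against that shift. Without animals 14 of each group limma called 52 members, and 56 to 60 without animals 13, 15 or 16. Of the extraction rounds with P22 samples, round 11 alone holds both tissues, with C 16 WBC and the hypothalamus of C 16 and PF 13. Within that round 71 of the 81 members differed in the direction of the whole comparison, 5 in the opposite direction and 5 not at all; these samples are part of the fit that called them. In chr1:212186239-212187157, described next, C 16 WBC had 22.8 and neither hypothalamus sample had a peak. Other rounds hold a single tissue, and round was not a term of this fit. With 18 residual degrees of freedom over 23 samples, the fit also held no term per animal, although both tissues came from the same animals. An alternative fit with a term per animal called 70 members, 51 of them higher in WBC and 19 lower.

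The member with the largest difference toward WBC was chr1:212186239-212187157, with 17.2, 25.3, 20.1 and 22.8 fragments in C, 22.6, 33.3 and 24.3 in PF and 25.7, 19.9, 20.1 and 29.7 in PAE, and no peak in any of the 48 hypothalamus samples. The difference was 1.88 ± 0.14 (SE; limma adjusted p = 1.34e-10). In chr1:212254258-212255831 WBC had 15.3 to 33.8 (median 23.1, 11 of 11 samples), and 3 of 12 P22 hypothalamus samples had 7.13, 7.51 and 11.6, a difference of 1.79 ± 0.17 (limma adjusted p = 5.61e-09). Every WBC sample used lies above every P22 hypothalamus sample in both members. The latter was also seen in 9 of 12 P1 hypothalamus samples, at 7.21 to 15.2.

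Further members higher in WBC had peaks in most of its samples. For chr1:214124013-214124602, 10 of 11 WBC samples had 16.1 to 33.3 and no P22 hypothalamus sample had a peak (1.65 ± 0.20, limma adjusted p = 3.71e-07). For chr1:212338017-212338461 10 of 11 had 16.2 to 30.6, against 9.17 and 12.4 in 2 of 12 (1.59 ± 0.22, limma adjusted p = 2.29e-06). For chr1:213890730-213891704 9 of 11 had 24.4 to 37.5, against 24.8 and 27.9 in 2 of 12 (1.41 ± 0.29, limma adjusted p = 0.000409). Under the alternatives run, the difference of this member ranged from 0.72 to 2.03. Its 2 hypothalamus peaks lie within the range of the WBC peaks, below their median of 30.6.

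Toward the hypothalamus, chr1:212303509-212304367 had the largest difference, −1.93 ± 0.15 (SE; limma adjusted p = 2.34e-10). Hypothalamus heights were 12.9, 20.7, 23 and 25.2 in C, 24.6, 27.7, 30.6 and 26.9 in PF and 27.9, 33.7, 27.9 and 31.6 in PAE, and PAE 13 alone of the WBC samples used had a peak (10.5). All hypothalamus samples lie above all WBC samples used, and the member had a peak at every age. In chr1:212023896-212024390, 9 of 12 hypothalamus samples had 21.1 to 35.7 and no WBC sample used had a peak (−1.60 ± 0.30, limma adjusted p = 0.00016). In chr1:212084065-212084661 8 of 12 had 18.8 to 33.7, against 7.69 in 1 WBC sample (−1.31 ± 0.30, limma adjusted p = 0.00125).

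The remaining 2 of the 5 were present in both tissues. In chr1:212122019-212122679, 11 of 12 hypothalamus samples had 12.3 to 29.3 and 6 of 11 WBC samples 7.38 to 11.3 (−1.29 ± 0.22, limma adjusted p = 6.38e-05). In chr1:212528558-212529884 all had a peak, at 17.3 to 35.8 (median 23) against 6.97 to 15.8 (median 10.4), a difference of −1.18 ± 0.17 (limma adjusted p = 4.26e-06). Under the alternatives run, this difference ranged from −1.33 to −0.4. The tissues do not overlap in the latter. None of the 3 DMRs passed this test: differences were −0.14 (limma adjusted p = 0.545) for DMR 1, 0.29 (0.15) for DMR 2 and 0.17 (0.406) for DMR 3. A limma F test of group by tissue called 0 of 215 members (0.0266% of all regions). In this test 9 had an unadjusted p under 0.05 (4.19%, against 4.98% of all regions). The DMRs were listed for a shared direction in both tissues, so their part in this count follows from the choice. As the test uses the P22 group values that chose the segment, it cannot decide whether group differences depend on tissue here. Nothing is read from it.

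Across ages of the hypothalamus, limma tested 255 of the 275 members and called 19 (7.98% of all regions; 7.45% of members tested), with 56 at an unadjusted p under 0.05 (22%; 23% of all regions). The share of members is near that of all regions. In 15 of the 19 (78.9%) the mean was lower on P22 than on P1, against 47.9% of the 33271 regions called over the genome, and in 4 it was higher. With heights scaled by fragments limma called 56, with 53 lower on P22 (94.6%; 79.9% of all regions called) and 3 higher. The difference between these shares was not tested. All P22 samples were immunoprecipitated in meDIP round 1 and all younger samples in round 2, and each extraction round of the hypothalamus holds a single age. Age, extraction round and, for P22, meDIP round cannot be told apart.

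The member chr1:212386895-212387829, among the 3 highest with a peak in all samples, fell with age, with heights of 39.6 to 69 (median 53.5, n = 12) on P1, 39.9 to 68.2 (45.7) on P8, 38.2 to 51.1 (45.5) on P15 and 31.3 to 40.8 (35.2) on P22 (F = 14.2, limma adjusted p = 0.000169). In chr1:212528558-212529884 heights rose, from 8.33 to 16.2 (median 12.1) on P1, 11.5 to 19 (15.7) on P8 and 15.7 to 27.7 (20) on P15 to 17.3 to 35.8 (23) on P22 (F = 12.3, limma adjusted p = 0.000525). Its P22 hypothalamus values lie above all P1 values. In chr1:213106495-213108414 all samples of P1, P8 and P15 had a peak, with medians of 16.9, 16.8 and 16.4, and on P22 6 of 12 had one, at 9.2 to 16.1 (F = 12, limma adjusted p = 0.000603). With fold enrichment in place of height, the first 2 were no longer called: F = 1.45 (adjusted p = 0.489) and F = 0.0888 (adjusted p = 0.983). With heights scaled by fragments the rising member had F = 3.89 (adjusted p = 0.0666). The DMRs were not called across ages, with limma adjusted p of 0.526, 0.696 and 0.438.

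The other 2 of the 3 highest members with a peak in all 60 samples were also called across ages. In chr1:212372240-212374851 (F = 7.58, limma adjusted p = 0.00953) P22 heights were 22.5 to 38.3 (median 28.5) in the hypothalamus and 17.5 to 44.5 (30.3) in WBC, and P1 heights 32 to 58.3 (38.4). In chr1:213134697-213136656 (F = 6.95, limma adjusted p = 0.0142), which lies between DMR 1 and DMR 2, they were 15.7 to 45.3 (29.9), 23.5 to 44.5 (37.4) and 31.2 to 62.9 (48.8). The first of the 3, chr1:212386895-212387829, had 31.4 to 51.6 (43.6) in WBC. In all 3 members the tissues overlap on P22.

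The other 10 flanking members of the DMRs were as follows. In the P22 hypothalamus, 8 of them had no peak. Beside DMR 1, chr1:212984752-212985840 had a peak in PF 13 (22.3), PF 14 (15.5) and PAE 13 (21.5) in the P22 hypothalamus, and chr1:212990666-212991190, chr1:213031644-213032247 and chr1:213079464-213080089 had none there. Beside DMR 2, chr1:213164058-213164519, chr1:213169850-213170371, chr1:213205996-213206575 and chr1:213208773-213209211 had none in the P22 hypothalamus either. Before DMR 3, chr1:213225103-213226679 had peaks in C 14, C 15 and C 16 (15.5, 19.5 and 12.6), PF 14 (14.4), PAE 13 (18.2) and PAE 16 (15.3), and chr1:213228432-213228809 had none. In WBC, chr1:213164058-213164519 had peaks in PAE 14 (7.57) and PAE 15 (15.5) alone, with differences of 0.39 and 0.39 from C and PF, and chr1:213169850-213170371 in PAE 15 (10.9) alone, with 0.20 and 0.20. The differences from C and PF in WBC were 0.39 and 0.20 in chr1:212990666-212991190, −0.26 and 0.36 in chr1:212984752-212985840 and −0.46 and −0.11 in chr1:213031644-213032247. They were −0.11 and −0.10 in chr1:213079464-213080089, −0.08 and −0.08 in chr1:213205996-213206575, and −0.21 and −0.18 in chr1:213225103-213226679. In chr1:213208773-213209211 no WBC sample had a peak, and in chr1:213228432-213228809 C 16 alone had one (7.31). WBC differences of the flanking members thus go in both directions.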

How the data were processed

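Alignment to Rn6 (BWA) and peak calling were done by the authors; MACS2 2.1.0.20140616 ran per sample, at q 0.05 and without an input. The deposited values are the peak height in fragments, the fold enrichment over local background as a ratio, and −log10 p and −log10 q. From these, summits of a peak were joined and peaks merged; heights were scaled by the median log ratio over the 20470 regions with a peak in all 60 samples, set to 6.35 without a peak, and log2 transformed. Tests used limma 3.58.1 in R 4.3.3, with Python 3.11.15, numpy 2.4.6 and pandas 2.3.3, over all regions, and were tried on simulated data. Named members are the DMRs and the 2 members on either side, and any called for PAE at younger ages. Those in at least 6 of 8 P22 PAE and at most 2 of 15 other samples were also named. So were any in at most 1 of 8 and at least 10 of 15. Others are the 5 with the largest tissue difference each way and the 3 highest in all samples. The 3 with the largest F across ages were named as well. Members and lists were chosen with earlier results of these data known. Animals read as littermates occur across ages and were not modelled. Read counts, genome sequence and annotation were not analysed.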

Additional observations from a re-analysis of the deposited data

Results flagged for a closer look

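In groups of 4 animals, a sample was set apart when its gap to the nearest other sample took up nearly the whole range of the group. Of 75 groups examined 22 had such a sample, and chance gives about 1 in 20 groups. Of the 22, 18 are DMR values, among 45 DMR groups. In 14 of them a peak was present in 1 of the 4 animals, which by construction puts it apart from 3 animals at the floor.

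In DMR 1 these were C 1 (17.6 fragments) and PAE 4 (15.9) on P1, PF 8 (20.5) and PAE 8 (15.8) on P8, and PF 9 (16.7) on P15. PF 2 had no peak on P1 and stood at the floor (6.35) below the 3 other PF animals. In DMR 2 they were C 7 (13.9) and PF 7 (10.3) on P8, PAE 14 (14.3) in the P22 hypothalamus and PF 15 WBC (13.5).

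In DMR 3 they were C 1 (16) on P1, C 7 (9.92) on P8, C 10 (14.5) and PF 9 (10.5) on P15, C 15 WBC (11.5) and PF 15 WBC (12.6). PF 2 on P1 and PAE 13 WBC stood at the floor (6.35), below the others of their groups.

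By members with a peak, PF 5 (112) was apart from the other P8 PF animals and PAE 12 (134) from the other P15 PAE animals. By fragments, PAE 3 (16039278) was above and PF 16 WBC (11910384) below the rest of its group.

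PF 15 WBC, which the P22 differences leave out, had heights of 13.5 in DMR 2 and 12.6 in DMR 3, above every C WBC sample.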

How the results depend on the processing

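At younger ages limma called 0 members in PAE vs. C, PAE vs. PF and PF vs. C, also under every alternative run. These included leaving out each replicate and a block by replicate number, which is shared by animals of different groups. With heights scaled by fragments, members called rose from 81 to 131 between tissues and from 19 to 56 across ages. All regions moved too: those called across ages rose from 33271 to 79492, and the median tissue difference from 0.13 to 0.36. The rise is thus not particular to the segment, and its cause was not tested. Without single replicates, 52 (without animals 14) to 60 members were called between tissues, with fewer samples, and 13 to 22 across ages. The tissue count was 70 with a term per animal and 77 with PF 15 WBC. Group by age gave 0 to 1 members without single replicates, the 1 without animals 9. The count of members with a P22 gain of 1 in both tissues was 0, and 1 with fold enrichment, 1 with a lower floor and 2 at a gain of 0.5; without single replicates it was 0 to 1, the 1 without animals 15. The longest hypothalamus run was 0, and 1 under each of these, and 0 to 1 without single replicates (1 without animals 13, 15 or 16). The number of members was 269 to 276 without single replicates, 255 at q under 0.001 and 242 with peaks in 5 samples.

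DMR differences at younger ages changed sign in places, always with a limma adjusted p of 0.789 or more. For DMR 2 in PAE vs. C, −0.06 became 0.01 with all 48 hypothalamus samples, 0.20 without P15, 0.02 at q under 0.001 and 0.01 scaled by fragments (−0.19 to 0.05 without single replicates, above 0 without animals 1, 7, 9 or 10). In PAE vs. PF, DMR 1 went from 0.11 to −0.06 without littermates of P22 animals, −0.36 without P15 and −0.03 scaled by fragments (−0.03 to 0.25, below 0 without animals 10 or 12). DMR 2 went from −0.05 to 0.03 with all 48, 0.18 without P15 and 0.03 scaled by fragments (−0.22 to 0.09, above 0 without animals 1, 7, 9 or 11), and DMR 3 from 0.39 to −0.05 without P15 (0.24 to 0.55). In PAE vs. C, DMR 1 ran from 0.46 to 0.76 and DMR 3 from 0.48 to 0.78 without single replicates. The cause was not tested. With the replicate block the DMR differences were 0.57, −0.06 and 0.60 against C and 0.11, −0.05 and 0.39 against PF. Leaving out P15, Dev-4 alone and the gain of 0.5 were chosen after seeing the data. Animals of the same number in different groups were not alike: deviations correlated at −1.83e-05 on average over 36 such pairs (−0.0433 to 0.0223) and at 2.41e-05 over 108 others.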
